A study of Mus musculus with 24 samples.

Results

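The S100 proteins are small calcium-binding proteins, and 8 of their genes were followed here through sorted dendritic cells of the mouse spleen. They were S100a1, S100a4, S100a6, S100a8, S100a9, S100a10, S100a11 and S100a13, taken by symbol from a table of raw read counts of 39017 genes. All 8 were found and all 8 passed the filter on low counts, which kept 18093 genes. Of the 11 other genes of the table whose symbols start with S100, 4 passed it.

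Most S100 proteins form dimers that change shape when they bind calcium and then attach to a partner protein, such as an annexin, a myosin or an enzyme. S100a10 is the exception, being locked in the partner-binding shape without calcium. Some members also leave the cell and act as danger signals: S100a8 and S100a9 together form calprotectin, which neutrophils and monocytes hold in large amounts and which is read by Tlr4 and the receptor for advanced glycation end products.

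RNA was sequenced from dendritic cell subsets sorted by flow cytometry from spleens of C57BL/6 x FVB/N F1 mice. The mice were either Flt3 ITD/+, with an internal tandem duplication in 1 copy of the receptor tyrosine kinase gene Flt3 (ITD below), or Flt3 +/+ (WT below). The subsets were the PDC, the canonical CD8+ cells (C_CD8), the non-canonical CD8+ cells (NC_CD8), and the CD11b+ cells with high Esam (Esamhi) or low Esam (Esamlo). Each genotype had 2 libraries of PDC, 3 of C_CD8, 3 of NC_CD8, 2 of Esamhi and 2 of Esamlo, which makes 12 ITD and 12 WT libraries. The labels place every library in an experiment batch, A to D, and every ITD library has 1 WT library of the same subset and batch: PDC in A and B, both CD8+ subsets in B, C and D, both CD11b+ subsets in C and D. The design text describes the replicates as independent experiments. Age, sex and the number of mice behind a library were not given in the sources used here.

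Library totals were 11197145 to 22248404 counts. Levels below are CPM, a gene's count as it would be in a library of 1000000 counts in all, and CPM per kilobase of exon where genes are compared. Marker levels were compared between the subsets. The 10 pDC markers summed to 13700 to 14000 CPM in ITD and 14500 to 14600 CPM in WT libraries of PDC and to 142 to 1590 CPM in all others. In NC_CD8 they summed to 912 to 1540 CPM in ITD and 1110 to 1590 CPM in WT. The 10 markers of CD8+ conventional cells summed to 6510 to 10300 CPM in C_CD8, 4450 to 7630 CPM in PDC and 1130 to 2880 CPM in the rest, NC_CD8 included. PDC and C_CD8 thus overlapped on that list, and no list was made for NC_CD8 as such. Esam averaged 64.3 ± 6.29 CPM in ITD and 62.8 ± 9.05 CPM in WT Esamhi libraries but 10.7 ± 2.26 CPM in ITD and 8.87 ± 6.84 CPM in WT Esamlo libraries (SD, n = 2 each). In bulk samples like these, fewer cells that express a gene and less RNA of it per cell cannot be told apart.

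All 8 genes lie on chromosome 3, at chr3:90511034-93564643 of the mm10 build (GENCODE vM21 annotation), a stretch of 3053610 bases. S100a1 (minus strand) and S100a13 (plus strand) start back to back with 42 bases between them. Among the members, S100a4 follows S100a13 after 79189 bases, S100a6 follows S100a4 after 6836 bases, S100a8 lies 44796 bases further on, and S100a9, on the minus strand, 22596 bases after S100a8. S100a11 and S100a10 form a second group, 2824766 bases beyond S100a9 and 28792 bases apart. The 4 stretches below were chosen because the results turn on them: the start of S100a4, which had the widest ratio between WT subsets and was the member called between genotypes in C_CD8, the starts of S100a8 and S100a9, whose levels moved together, and the gap from which S100a1 and S100a13, whose subset profiles differed, are read in opposite directions. They are the RefSeq bases before the transcript starts in GRCm38.p6, without any base of an annotated exon. Capitals mark the one motif match in a sequence, and the S100a9 stretch is written on the minus strand, in the direction of its transcript.
S100a4 upstream, chr3:90603520-90603769, plus strand: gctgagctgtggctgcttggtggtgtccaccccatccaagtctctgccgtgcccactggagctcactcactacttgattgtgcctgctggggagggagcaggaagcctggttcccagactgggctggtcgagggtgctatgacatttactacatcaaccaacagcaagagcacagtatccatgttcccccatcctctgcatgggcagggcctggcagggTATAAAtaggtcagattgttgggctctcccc
S100a8 upstream, chr3:90668821-90668977, plus strand: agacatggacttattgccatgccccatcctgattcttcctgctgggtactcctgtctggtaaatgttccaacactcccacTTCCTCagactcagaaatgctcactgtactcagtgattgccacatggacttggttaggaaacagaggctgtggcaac
S100a9 upstream, chr3:90695722-90695971, minus strand: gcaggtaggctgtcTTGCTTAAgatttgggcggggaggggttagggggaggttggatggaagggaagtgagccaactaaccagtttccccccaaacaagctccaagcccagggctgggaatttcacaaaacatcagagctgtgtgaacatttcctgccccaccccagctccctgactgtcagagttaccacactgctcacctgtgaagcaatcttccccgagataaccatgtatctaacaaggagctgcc
S100a1 to S100a13 gap, chr3:90514393-90514434, plus strand: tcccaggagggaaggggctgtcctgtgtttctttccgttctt

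The motifs searched, on both strands, were TTGCNNAA for C/EBP factors, TTCNNNGAA for STAT factors, GAGGAA for PU.1, TGANTCA for AP-1 and TATAAA for the TATA box. The S100a4 stretch held 1 TATAAA, which 12.4% of 32851 RefSeq windows of 250 bases hold. The S100a8 stretch of 157 bases held 1 PU.1 match on the opposite strand (TTCCTC as printed), found in 23.3% of windows, and the S100a9 stretch held 1 C/EBP match (TTGCTTAA), found in 9.56%. S100a11 was the other member with matches, 2 for AP-1 and 1 for PU.1 in 242 bases, against 6.75% and 23.3% of windows. None of the motifs was found before S100a1, S100a6 or S100a13, nor in the gap, and no STAT match (7.02% of windows) was found before any of the 7 members looked at. S100a10 was not looked at. These matches describe the letters and nothing more.

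Per kilobase of exon, S100a11 and S100a4 were the most abundant members, with medians of 492 and 434 CPM per kilobase over the 24 libraries. S100a6 followed at 104, S100a10 at 39.4 and S100a13 at 30.1 CPM per kilobase. S100a1 had 7.42, S100a9 4.19 and S100a8 2.11 CPM per kilobase. The members differed widely in how evenly the subsets shared them: between the highest and the lowest WT subset, mean CPM differed 69.7-fold for S100a4 and 15.4-fold for S100a6, but 4.49-fold for S100a1, 4.14-fold for S100a11, 3.1-fold for S100a10 and 2.5-fold for S100a13. For S100a8 and S100a9 the ratios were 39.6 and 37.5, on few reads.

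**Figure D1:**
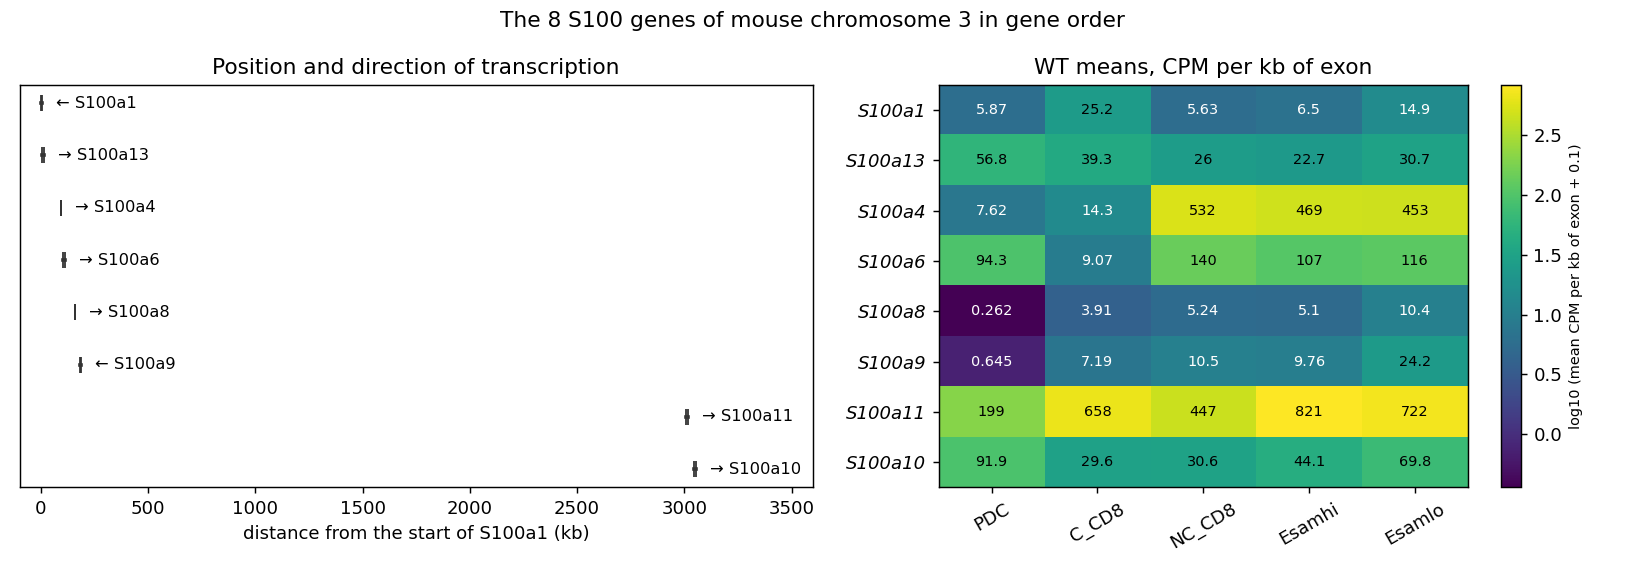
Left, position of the 8 genes as distance from the start of S100a1 in kilobases, with an arrow for the direction of transcription. Right, mean CPM per kilobase of exon in the WT libraries of each subset (n = 2 or 3), on a log10 colour scale with the value in each cell. S100a11 was high in every subset, whereas S100a4 stood at 453 to 532 in the NC_CD8, Esamhi and Esamlo cells and at 14.3 and 7.62 in the C_CD8 and PDC cells.

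**Figure D2:**
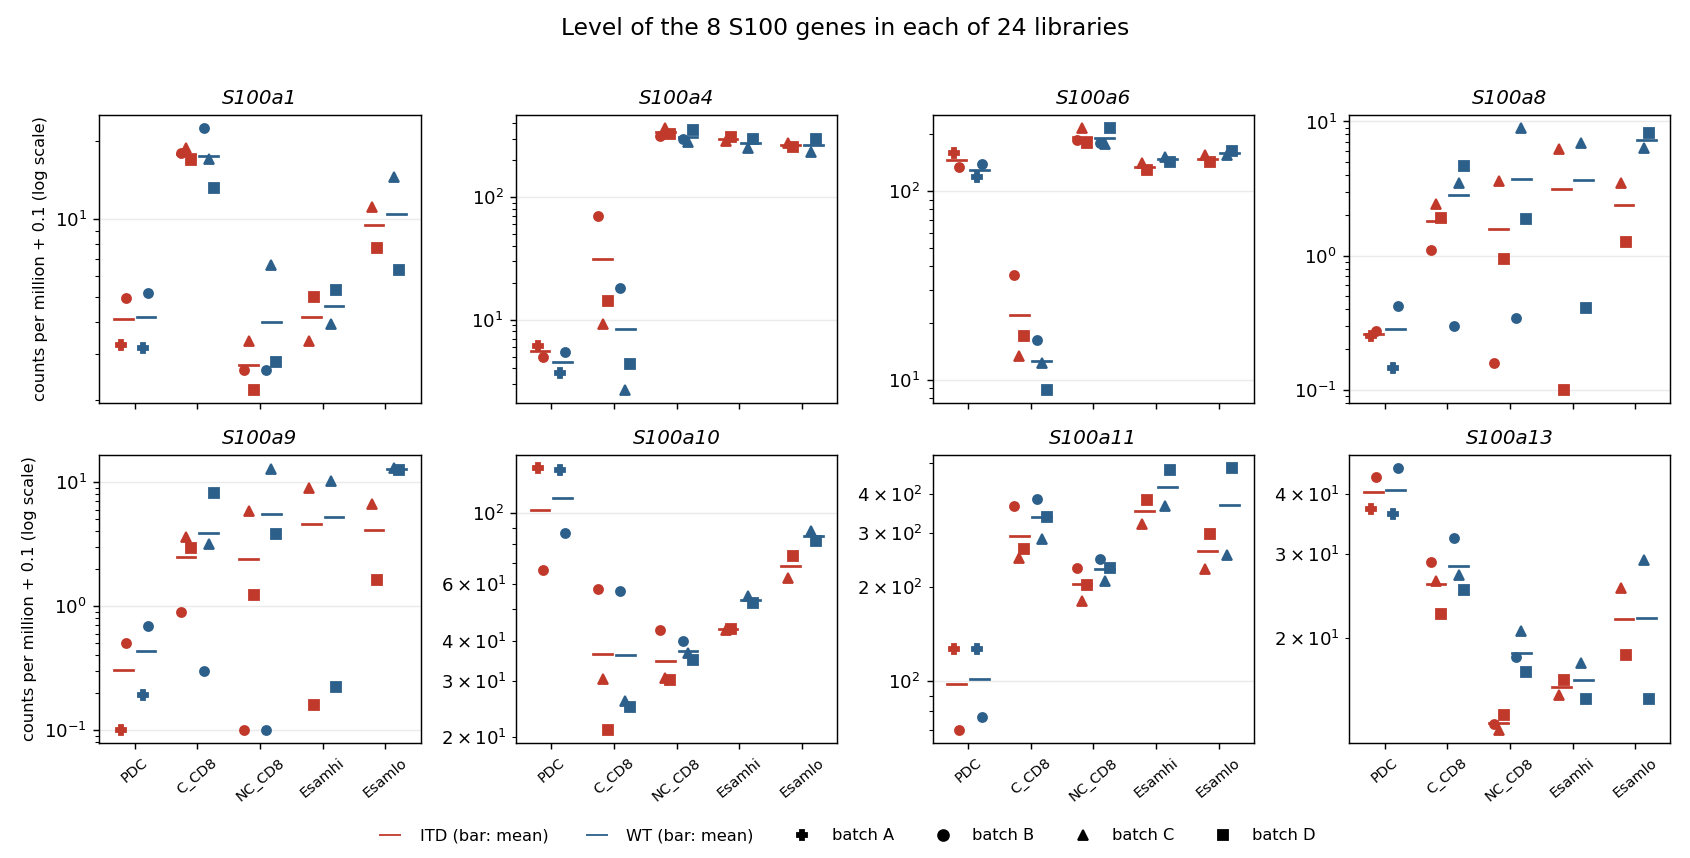
CPM plus 0.1 on a log axis for each of the 24 libraries, by subset, with ITD (red) left of WT (blue), marker shape for the batch and a bar for the group mean. S100a4 in C_CD8 is the panel where all 3 ITD libraries sit above the WT library of their own batch by a similar distance.

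The first question was how the members differ between subsets of WT mice. A test of any difference among the 5 WT subsets (edgeR's quasi-likelihood test, p-values adjusted over all genes, called at adjusted p under 0.05) called 6 of 8 members, all but S100a8 and S100a9, against 46.7% of all genes. With a term for the batch in the fit, the same 6 members were called, against 64.1% of all genes. Much of the transcriptome thus differed between these cells, and the members' count was not tested against that background.

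Of 80 tests of 8 members in 10 pairs of WT subsets, which share libraries with each other, 26 were called without and 34 with the batch term. NC_CD8 against C_CD8 had 4 of 8 members called, where 25% of all genes were, and 5 with the batch term, where 42% were. PDC against C_CD8 had 4 called (37.8% of all genes) and 3 with the batch term (53%). Esamhi against C_CD8 had 4 (23.5%) and 6 (35.5%), and Esamlo against C_CD8 had 2 (16%) and 3 (28.5%). These counts were not tested against the shares of all genes.

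Against PDC, NC_CD8 had 4 of 8 members called in both fits, with 26.4% of all genes without and 43.5% with the batch term. Esamhi against PDC had 3 in both fits (30.6% and 42.8% of all genes), and Esamlo against PDC had 4 and then 5 (30.2% and 44.8%). Between the other 3 subsets a smaller share of all genes was called than in any pair with C_CD8 or PDC, in both fits. Esamlo against NC_CD8 had 1 called, S100a1, and 3 with the batch term (4.08% and 15.1% of all genes). Esamhi against NC_CD8 had 0 of 8 called, with 1 at an unadjusted p under 0.05, 1 by DESeq2 and 2 with the batch term (6.34% and 16.7% of all genes). Esamhi against Esamlo had 0 in both fits and 0 by DESeq2, with 1 at an unadjusted p under 0.05 in edgeR (0.658% and 6.36% of all genes).

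S100a4, also called metastasin, binds the heavy chain of non-muscle myosin and is linked to cell movement. In C_CD8 it had 69.8, 9.06 and 14.1 CPM in the ITD libraries of batches B, C and D, against 18.1, 2.59 and 4.26 CPM in the WT libraries. In NC_CD8 it had 313, 368 and 328 CPM in ITD, against 297, 283 and 351 CPM in WT. The 2 CD8+ subsets therefore did not overlap in either genotype, although both are sorted by CD8. In Esamhi, batches C and D, it had 287 and 309 CPM in ITD, against 251 and 297 CPM in WT. In Esamlo it had 274 and 257 CPM in ITD, against 232 and 297 CPM in WT. In PDC, batches A and B, it had 5.97 and 4.86 CPM in ITD, against 3.6 and 5.31 CPM in WT, so that PDC and C_CD8 were both low and the other 3 subsets both high and close together.

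The WT order of S100a4 was NC_CD8, Esamhi, Esamlo, C_CD8, PDC. NC_CD8 exceeded C_CD8 by 5.09 ± 0.72 on the log2 scale (SE, adjusted p = 4.37e-05 in edgeR) and PDC by 6.12 ± 0.91 (adjusted p = 5.69e-05). Esamhi and Esamlo exceeded C_CD8 by 5 ± 0.74 and 4.95 ± 0.74 (adjusted p = 8.52e-05 and 0.000124). Of the neighbours in the order, Esamlo and C_CD8 thus differed. Esamhi was within the error of NC_CD8 (log2 change -0.09 ± 0.67, adjusted p = 0.97), and PDC was lower than C_CD8 by an uncalled margin (log2 change -1.03 ± 0.74, adjusted p = 0.293). In the annotation, 302 bases of S100a4 exons, 51.7% of their length, are also exon of Gm42674 on the same strand, a gene with no row in the count table used here.

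S100a6, or calcyclin, binds the calcyclin-binding protein Cacybp. It shared with S100a4 the low level in C_CD8, but not the low level in PDC. In C_CD8 it had 35.7, 13.3 and 16.9 CPM in ITD libraries of batches B, C and D, against 16.2, 12.2 and 8.76 CPM in WT libraries. In NC_CD8 it had 187, 217 and 179 CPM in ITD, against 180, 177 and 216 CPM in WT. PDC held 159 and 133 CPM in ITD, against 119 and 139 CPM in WT, within reach of NC_CD8. Esamhi had 140 and 129 CPM in ITD, against 151 and 143 CPM in WT, and Esamlo had 155 and 142 CPM in ITD, against 155 and 164 CPM in WT. In WT, all 4 other subsets exceeded C_CD8: NC_CD8 by 3.83 ± 0.31 (log2, adjusted p = 1.1e-07 in edgeR), Esamlo by 3.65 ± 0.32 (3.55e-07), Esamhi by 3.53 ± 0.32 (3.72e-07) and PDC by 3.27 ± 0.31 (2.04e-07). Among those 4 no S100a6 pair was called without the batch term. With it, NC_CD8 and Esamlo exceeded PDC by 0.95 ± 0.30 and 0.92 ± 0.34 (adjusted p = 0.0179 and 0.0358).

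S100a1, best known in heart muscle, where it regulates the calcium pump and the ryanodine receptor, ran the other way. In C_CD8 it had 17.9, 18.7 and 16.8 CPM in the ITD libraries, against 22.5, 17 and 13.1 CPM in the WT libraries. Esamlo was second, with 11.1 and 7.64 CPM in ITD, against 14.5 and 6.26 CPM in WT. The other 3 subsets had 2.09 to 6.53 CPM in every library. NC_CD8, PDC and Esamhi were lower than C_CD8 in WT, by log2 changes of -2.31 ± 0.37, -2.22 ± 0.43 and -1.99 ± 0.42 (adjusted p = 0.000152, 0.000469 and 0.00234 in edgeR). Esamlo exceeded NC_CD8 by 1.5 ± 0.39 (adjusted p = 0.0364) and PDC by 1.41 ± 0.44 (adjusted p = 0.0212). The Esamlo against PDC call ended with the batch term (adjusted p = 0.0659). It also ended without the WT library of Esamlo in batch C or of PDC in batch A, and the Esamlo against NC_CD8 call without that of Esamlo in batch C or of NC_CD8 in batch B or D.

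S100a13, which in human and rodent cells helps Fgf1 and Il1a leave the cell without a signal peptide, starts 42 bases from S100a1 but was highest in PDC. PDC held 37.1 and 43.1 CPM in ITD, against 36.1 and 45.1 CPM in WT. C_CD8 came next, with 28.8, 26.3 and 22.4 CPM in ITD, against 32.3, 27 and 25.1 CPM in WT. NC_CD8 had 13.1, 12.8 and 13.8 CPM in ITD, against 18.2, 20.6 and 16.9 CPM in WT, and there the genotypes did not overlap. The share of all genes without overlap is not given here. Esamhi had 14.9 to 17.6 CPM and Esamlo 14.8 to 29.1 CPM over both genotypes. In WT, S100a13 was lower than in PDC in Esamhi (log2 change -1.25 ± 0.24, adjusted p = 0.000599 in edgeR), NC_CD8 (-1.14 ± 0.21, adjusted p = 0.000539) and Esamlo (-0.82 ± 0.24, adjusted p = 0.0132). It was lower than in C_CD8 in Esamhi (-0.83 ± 0.22, adjusted p = 0.0112) and NC_CD8 (-0.72 ± 0.19, adjusted p = 0.0107). PDC against C_CD8, the top neighbours, was not called (0.42 ± 0.21, adjusted p = 0.132). Leaving out a single WT library ended 3 of these calls: Esamhi against C_CD8 without C_CD8 of batch B or either Esamhi library, NC_CD8 against C_CD8 without C_CD8 of batch B or NC_CD8 of batch D, and Esamlo against PDC without Esamlo of batch D or PDC of batch B.

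S100a11, or calgizzarin, a partner of annexin A1, was the most abundant member per kilobase and was lowest in PDC. PDC had 126 and 69.7 CPM in ITD, against 126 and 76.6 CPM in WT. NC_CD8 had 230, 181 and 204 CPM in ITD, against 246, 210 and 230 CPM in WT. The remaining subsets lay above, with C_CD8 at 365, 248 and 266 CPM in ITD, against 385, 286 and 338 CPM in WT. Esamhi had 319 and 382 CPM in ITD, against 365 and 475 CPM in WT. Esamlo had 228 and 296 CPM in ITD, against 255 and 483 CPM in WT. In WT the order was Esamhi, Esamlo, C_CD8, NC_CD8, PDC, and PDC was below all others: Esamhi, Esamlo and NC_CD8 exceeded it by 2.11 ± 0.37, 1.94 ± 0.37 and 1.15 ± 0.34 (log2, adjusted p = 0.000245, 0.000569 and 0.0164 in edgeR), and PDC was lower than C_CD8 (-1.82 ± 0.35, adjusted p = 0.00043). Without the WT library of PDC in batch B, the NC_CD8 against PDC value was 0.79 (adjusted p = 0.222). With the batch term the NC_CD8 level also differed from its neighbours above, C_CD8 (NC_CD8 over C_CD8 -0.67 ± 0.13, adjusted p = 0.000573), Esamhi (1.08 ± 0.14) and Esamlo (0.87 ± 0.15), and Esamhi exceeded C_CD8 by 0.41 ± 0.15 (adjusted p = 0.0356).

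S100a11 counts carry a limit of their own. Of its 50-base words, 41.1% also occur in the processed pseudogene Gm12854, and S100a11 held 56.1% to 59.4% of the reads summed over it, Gm12854 and the pseudogene Gm7665 (median 58.5%). The Gm12854 count was 0.489 to 0.577 times the S100a11 count in every library. The reads may thus have been split between near-identical copies, at almost the same rate in each library. Summing the 3 rows kept every S100a11 call between WT subsets.

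S100a10, or p11, pairs with annexin A2 at membranes. Its highest values were in PDC, with 138 and 66.2 CPM in ITD, against 136 and 86.6 CPM in WT, and they lay apart by batch, A above B. Esamlo followed, with 62.5 and 73.5 CPM in ITD, against 87.6 and 81.7 CPM in WT. Esamhi had 43.2 and 43.4 CPM in ITD, against 54.9 and 52.1 CPM in WT, so that in both CD11b+ subsets every ITD library was below every WT library. The share of all genes so separated is not given here. C_CD8 had 57.6, 30.2 and 21 CPM in ITD, against 57, 25.9 and 24.8 CPM in WT, batch B being high in both genotypes. NC_CD8 had 42.9, 30.5 and 29.9 CPM in ITD, against 39.8, 36.5 and 34.8 CPM in WT.

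Comparisons of S100a10 between WT subsets depended on the batch term. Without the batch term, PDC exceeded C_CD8 by 1.53 ± 0.41 (log2, adjusted p = 0.0068 in edgeR) and NC_CD8 was below PDC (-1.61 ± 0.41, adjusted p = 0.00716), and both calls ended without the PDC library of batch A. With it, these were 0.54 ± 0.23 (adjusted p = 0.0561) and -0.51 ± 0.24 (adjusted p = 0.0954). Esamlo against PDC turned from -0.34 ± 0.46 (adjusted p = 0.615) to 1.04 ± 0.27 (adjusted p = 0.00487). In batch B, the one that holds PDC together with other subsets, WT S100a10 was 86.6 CPM in PDC, 57 CPM in C_CD8 and 39.8 CPM in NC_CD8. No batch holds PDC together with Esamlo or Esamhi. In PDC, 11 markers of fibroblasts and stroma summed to 107 CPM in ITD and 220 CPM in WT in batch B, against 1 CPM in ITD and 1.84 CPM in WT in batch A, and their part in the PDC levels of the members was not tested. With the batch term, S100a10 in Esamlo exceeded C_CD8 by 1.59 ± 0.20 and NC_CD8 by 1.55 ± 0.19 (adjusted p = 1.69e-05 and 7.16e-05), and in Esamhi by 0.92 ± 0.20 and 0.89 ± 0.20 (adjusted p = 0.00176 and 0.00511). C_CD8 and NC_CD8 did not differ beyond their spread in either fit.

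S100a8 and S100a9, the calprotectin subunits, were the rarest members, with 1067 and 1634 reads over the 24 libraries. In Esamlo, batches C and D, S100a8 had 3.39 and 1.15 CPM in ITD, against 6.29 and 8.12 CPM in WT, and S100a9 had 6.52 and 1.52 CPM in ITD, against 12.9 and 12.4 CPM in WT. Esamlo was the subset where both subunits were lower in every ITD library than in every WT library. The subunits' levels moved together and are not separate observations. The share of all genes so separated in the Esamlo libraries is not given here. In the same libraries 15 monocyte markers summed to 3270 and 2550 CPM in ITD, against 5080 and 3420 CPM in WT, with at most 1 of them at 0, and their part in the subunits' difference was not tested. In Esamhi, S100a8 had 6.11 and 0 CPM in ITD, against 6.77 and 0.309 CPM in WT, and S100a9 had 8.88 and 0.0605 CPM in ITD, against 10.1 and 0.124 CPM in WT. There the libraries of batches C and D differed more than those of ITD and WT.

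In NC_CD8, batches B, C and D, S100a8 had 0.0571, 3.52 and 0.835 CPM in ITD, against 0.24, 8.89 and 1.77 CPM in WT. S100a9 had 0, 5.75 and 1.13 CPM in ITD, against 0, 12.7 and 3.68 CPM in WT, and a count of 0 allows up to 0.171 CPM in that ITD library and 0.144 CPM in that WT library (3 counts of the library total, counting error only). Batch C was the high one in both genotypes. In C_CD8, S100a8 had 1, 2.34 and 1.8 CPM in ITD, against 0.199, 3.39 and 4.56 CPM in WT, and S100a9 had 0.789, 3.51 and 2.85 CPM in ITD, against 0.199, 3.06 and 8 CPM in WT. In PDC the highest value was 0.405 CPM in ITD and 0.584 CPM in WT, both for S100a9.

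Over the 24 libraries the Pearson correlation of the subunits' log2 levels was 0.985, a description of points that share subset, batch and depth. Within pairs the ITD minus WT differences had opposite signs in PDC of batch A (1.38 for S100a8, -2.16 for S100a9, on at most 3 reads a library) and in C_CD8 of batch C (-0.53 for S100a8, 0.20 for S100a9). In NC_CD8 of batch B they were -1.62 for S100a8 and 0.25 for S100a9. That S100a9 value comes from the added count of 0.5 alone, as neither library had a read. The summed level of the subunits was 0.135 to 0.151 CPM in batch A, 0.0571 to 1.79 CPM in batch B, 5.86 to 21.6 CPM in batch C (median 12.4) and 0.0605 to 20.5 CPM in batch D (median 3.66). Summed over 20 neutrophil markers, the level was 19.2 to 972 CPM in ITD and 17.2 to 1150 CPM in WT libraries, with 4 to 13 of the genes at 0 in a library. Between batches B and C of NC_CD8 this sum fell, from 972 to 237 CPM in ITD and from 721 to 179 CPM in WT. The sum of the subunits rose there, from 0.0571 to 9.27 CPM in ITD and from 0.24 to 21.6 CPM in WT. In both genotypes 12 of the 20 markers were at 0 in batch B and 8 in batch C. Cxcr2, Retnlg and Mmp8 rose with the subunits, against the sum of the list. They were picked from it after their values were seen, so their rise is no separate sign of neutrophil RNA. Together these genes went from 0.514 to 3.58 CPM in ITD and from 0.048 to 4.55 CPM in WT. The part of neutrophil RNA in the S100a8 and S100a9 reads was not tested.

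**Figure D3:**
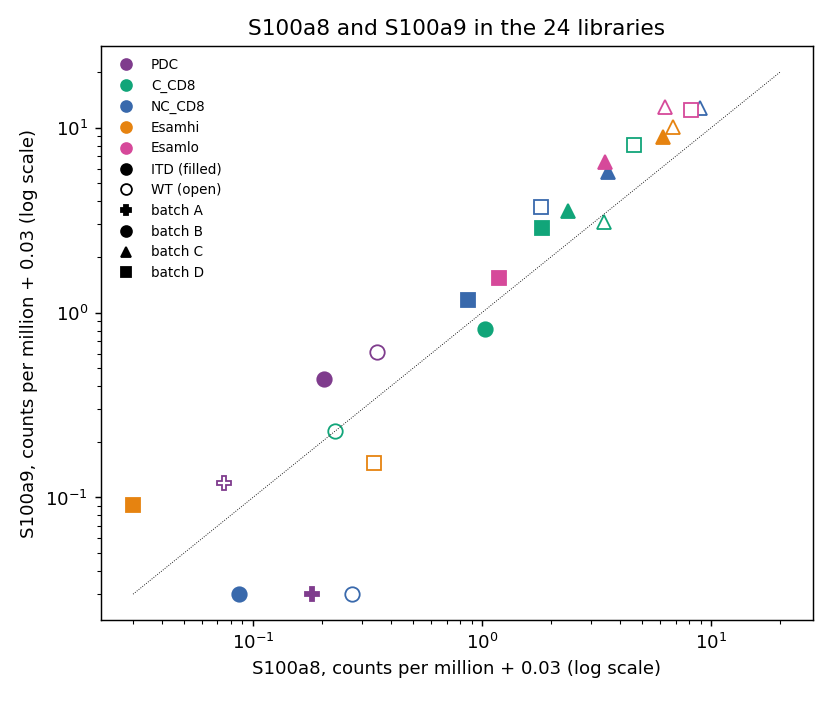
S100a9 against S100a8 in the 24 libraries, each as CPM plus 0.03 on log axes, with colour for the subset, shape for the batch, filled markers for ITD and open ones for WT, and a dotted line where both are equal. The points lie along 1 band, with the batch C libraries at 5.86 to 21.6 CPM for the sum and the batch A libraries at 0.135 to 0.151 CPM.

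Between WT subsets, neither subunit was called by edgeR without or with the batch term. DESeq2 called S100a8 in the 4 comparisons with PDC, where Esamlo exceeded PDC by 5.4 ± 1.73 (log2, adjusted p = 0.00774), on 7 reads in the WT libraries of PDC. The edgeR fit without a filter on low counts also called that pair. In edgeR with the batch term the S100a8 value of Esamlo against PDC was 2.14 ± 1.89 (adjusted p = 0.385).

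The second question was whether the Flt3 duplication shifted the members within a subset. Without regard to pairs, 0 of 40 tests were called (edgeR's quasi-likelihood test), with 2 at an unadjusted p under 0.05, both in C_CD8, and 0 by DESeq2. Few genes of any kind were called in that fit: 0.0608% in PDC, 0.0166% in C_CD8, 0.31% in NC_CD8, 0% in Esamhi and 0.00553% in Esamlo. No share of all genes at an unadjusted p is given, here or elsewhere, so counts at that threshold have no background beside them. The mean over the 5 subsets called 0 members, with 0 at an unadjusted p under 0.05, against 0.359% of all genes, and the test of a difference in effect among subsets called 0 members against 0% of all genes. DESeq2 called 0 members in both.

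ITD and WT libraries of the same subset and batch deviated together in all 12 pairs (r = 0.134 to 0.64 over genes), so the fit was also run with each pair as a block. In PDC, Esamhi and Esamlo, with 2 libraries per genotype, both pairs of a subset must give the same r (0.64, 0.317 and 0.134). Those pairs are therefore not separate evidence. It called 1 of 8 members in C_CD8, where 1.23% of all genes were called, and 0 in the other 4 subsets, where 0.249% of genes were called in PDC, 4.79% in NC_CD8, 0.0497% in Esamhi and 0.0497% in Esamlo. At an unadjusted p under 0.05 the blocked fit had 3 members in Esamlo, 1 in NC_CD8, and 0 in PDC and in Esamhi, again without a share of all genes. For the mean over the 5 subsets it called 2 members, against 6.83% of all genes, and for the difference in effect among subsets 1 member, against 0.304% of all genes.

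The member called in C_CD8 was S100a4, and the rise was alike in the 3 batches. Within the pairs listed above, ITD exceeded WT by 1.94, 1.8 and 1.73 on the log2 scale in batches B, C and D, although the level itself lay far apart between batches. The blocked fit gave 1.86 ± 0.17 (adjusted p = 0.000286), and 1.77 to 1.93 when any 1 of the 12 pairs was left out, with adjusted p at most 0.0108. The fit without pairs gave nearly the same size with a larger error, 1.91 ± 0.64 (adjusted p = 0.621), and depended on batch B: it was 0.47 without the ITD library of that batch and 3.22 without the WT library.

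In the other subsets the blocked S100a4 change was 0.32 ± 0.23 in PDC, 0.21 ± 0.13 in NC_CD8, 0.13 ± 0.16 in Esamhi and 0.04 ± 0.16 in Esamlo, none called (adjusted p = 0.988, 0.421, 0.969 and 0.959 in edgeR). The 5 effects differed from each other (F = 21.6, adjusted p = 0.0227), a call that ended when the C_CD8 pair of batch B, C or D was left out (adjusted p = 0.11, 0.0674 and 0.06). S100a4 was also called for the mean over the 5 subsets, at 0.51 ± 0.08 (adjusted p = 0.00287). Even so, C_CD8 remained a low-level subset: as a share of NC_CD8 in the same batch and genotype, its S100a4 level was 22.3%, 2.46% and 4.31% in ITD, against 6.11%, 0.913% and 1.21% in WT.

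Some lists of markers of other cells were also higher in ITD in C_CD8. The 10 markers of CD11b+ conventional cells summed to 237, 113 and 116 CPM in ITD, against 85.9, 75.6 and 104 CPM in WT, in batches B, C and D, with 0 of the 10 at 0. Among these, 5 of 10 were higher in ITD in all 3 pairs: Sirpa, Irf4, Clec10a, Cd209a and Mgl2. In the Esamhi and Esamlo libraries the same list summed to 2500 to 2980 CPM in ITD and 2350 to 2780 CPM in WT. It was not particular to them: NC_CD8 had 1590 to 2150 CPM in ITD and 1410 to 1840 CPM in WT. PDC had 2230 to 2480 CPM in ITD and 1910 to 2160 CPM in WT. The pDC markers were also higher in ITD in the 3 pairs, at 191, 211 and 250 CPM in ITD, against 142, 165 and 164 CPM in WT (5 of 10 genes higher in all 3 pairs). NC_CD8 held 912 to 1540 CPM of them in ITD and 1110 to 1590 CPM in WT.

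The 10 NK cell markers summed to 263, 192 and 261 CPM in ITD C_CD8, against 189, 94.9 and 186 CPM in WT, with 3 of 10 higher in all 3 pairs. The 20 neutrophil markers summed to 341, 29.9 and 34.9 CPM in ITD, against 133, 17.2 and 53.7 CPM in WT, with 7 to 13 of them at 0 in a library. The 15 monocyte markers summed to 1120, 1320 and 1340 CPM in ITD, against 1140, 1160 and 1250 CPM in WT. The neutrophil sum was thus lower in ITD in batch D, and the monocyte sum in batch B. Among the 15 monocyte markers, Ccr2 and Ly6c2 were called higher in ITD in the blocked fit, where 1.23% of all genes were called. The sum of that list did not rise in all 3 pairs. The part of these cell types in the S100a4 difference was not tested.

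**Figure D4:**
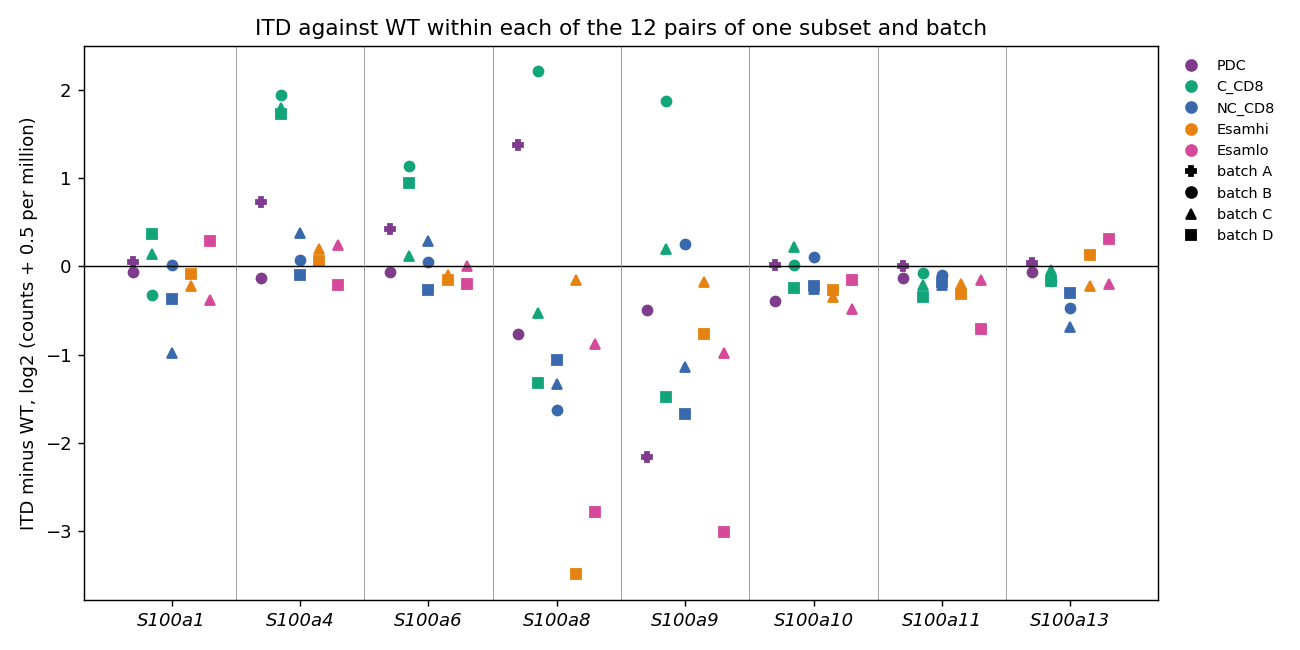
Difference between the ITD and the WT library of each of the 12 pairs, as log2 of CPM after adding 0.5 to each count, for the 8 members, with colour for the subset and shape for the batch. The 3 C_CD8 pairs of S100a4 lie at 1.73 to 1.94, the S100a11 points lie at or below 0 but for 1, and S100a8 and S100a9 scatter from -3.49 to 2.21.

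S100a6 was the other member with an unadjusted p under 0.05 in C_CD8. It was higher in ITD in all 3 pairs, by 1.14, 0.12 and 0.95 on the log2 scale in batches B, C and D, and the blocked fit gave 0.76 ± 0.19 (adjusted p = 0.0874 in edgeR). Without the pair of batch C it was 1.06 and called (adjusted p = 0.0208). In the 4 other subsets its blocked change was between -0.12 and 0.19. The markers of CD11b+ conventional cells and of pDC, given above for S100a4, were higher in ITD in the same 3 pairs, and their part in the S100a6 difference was not tested.

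S100a11 was lower in ITD in 11 of 12 pairs, the differences within pairs having a median of -0.18 on the log2 scale and reaching -0.71 in Esamlo of batch D. These differences use library totals without TMM scaling, and pairs of different subsets share batches. No share of all genes lower in as many pairs is given, here or below. The mean change of S100a11 over the 5 subsets was -0.20 ± 0.05 in the blocked edgeR fit (adjusted p = 0.0463), against -0.20 ± 0.15 without pairs (adjusted p = 0.79). The call was a narrow one. It ended without any 1 of 9 of the 12 pairs, and when S100a11 was summed with its 2 copies (-0.19 ± 0.05, adjusted p = 0.0562). Of the 5 subsets the lowest value was in Esamlo, at -0.41 ± 0.13 (adjusted p = 0.219), and without the Esamlo pair of batch C it was -0.72 and called (adjusted p = 0.0351).

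S100a13 was lower in ITD in all 3 NC_CD8 pairs, by log2 differences of -0.47, -0.69 and -0.30 in batches B, C and D, and the blocked change was -0.39 ± 0.12 (adjusted p = 0.0897 in edgeR). The markers of CD8+ conventional cells, whose C_CD8 subset holds more S100a13, also differed there, summing to 1130 to 1180 CPM in ITD and 1590 to 2880 CPM in WT NC_CD8, with 0 of 10 at 0. In the blocked fit 7 of 10 fell, where 4.79% of all genes were called in either direction. Other lists also differed between the genotypes of NC_CD8. In batches B, C and D, T cell markers summed to 21.2, 39.1 and 34.8 CPM in ITD, against 46.2, 182 and 110 CPM in WT. Red pulp macrophage markers summed to 56.7, 182 and 142 CPM in ITD, against 43.7, 1190 and 321 CPM in WT. Erythroid markers summed to 14.3, 59.1 and 18.7 CPM in ITD, against 12.6, 447 and 236 CPM in WT. The part of any of these markers in the S100a13 difference was not tested. S100a10 was lower in ITD in both pairs of Esamhi and of Esamlo, with blocked changes of -0.30 ± 0.14 and -0.29 ± 0.14 (adjusted p = 0.833 and 0.408). S100a1 had blocked values from -0.39 in NC_CD8 to 0.07 in C_CD8. For S100a8 the blocked mean change over subsets was -0.77 ± 0.39 (adjusted p = 0.289) and for S100a9 -0.89 ± 0.35 (adjusted p = 0.159), with 10 of 12 pairs lower in ITD for S100a8 and 9 of 12 for S100a9, 1 of the others having no S100a9 read in either library. In Esamlo the blocked change was -1.78 ± 0.72 for S100a8 and -1.91 ± 0.62 for S100a9 (adjusted p = 0.33 and 0.246), lower in ITD in 2 of 2 pairs for both. Neither subunit was called in any subset.

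**Figure D5:**
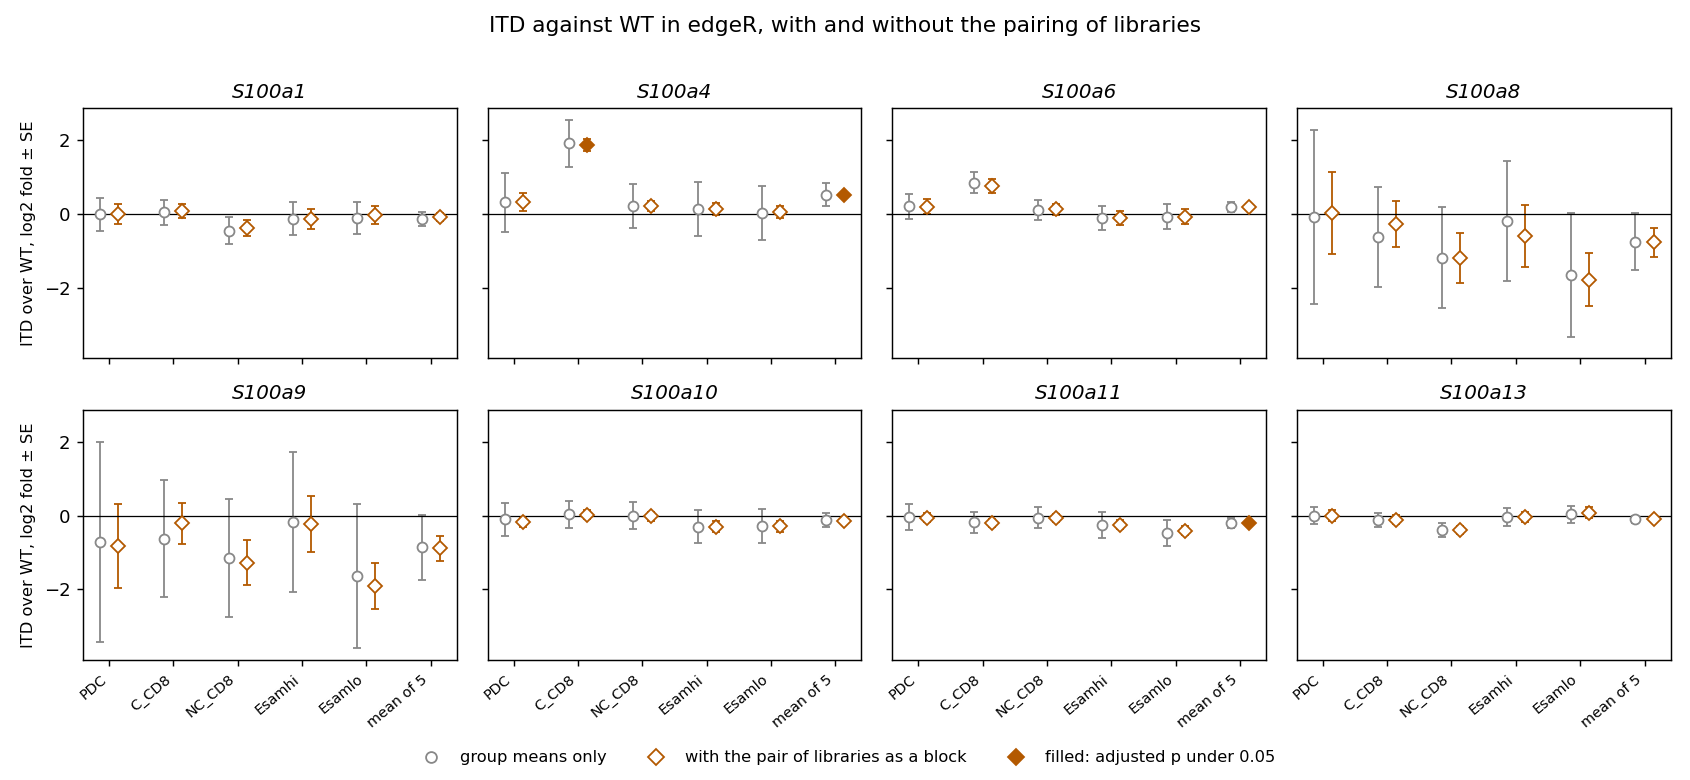
Log2 fold change of ITD over WT with its standard error, for each subset and the mean of the 5, from edgeR without pairs (grey circles) and with each pair of libraries as a block (brown diamonds), filled where the adjusted p is under 0.05. The filled points are S100a4 in C_CD8 (1.86) and in the mean (0.51), and S100a11 in the mean (-0.20).

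Neighbours along the chromosome differed in how alike their profiles were. Over the 24 libraries, log2 levels of S100a1 and S100a13 correlated at 0.401, of S100a13 and S100a4 at -0.806, of S100a4 and S100a6 at 0.643, of S100a6 and S100a8 at -0.0642, of S100a8 and S100a9 at 0.985 and of S100a11 and S100a10 at -0.326, again as a description of libraries that share subset and batch. By the profile of log2 CPM over the 10 groups, among 9732 genes, the genes most like S100a4 were Pitpnc1 (r = 0.995), Gas5 (0.992) and Ptchd1 (0.992). S100a6 was most like Zbtb20 (0.991), Zeb2 (0.987) and Kdm2a (0.983), and genes among those most like S100a1 were Ripk3 (0.981) and Slc4a7 (0.977). For S100a13 they included Cxcr3 (0.987) and Gna15 (0.987), and for S100a10 they were Cd68 (0.955), Lat2 (0.954) and Cyp51 (0.949). S100a11 was most like its copies Gm12854 and Gm7665 (0.999 each), then Lrrc18 (0.995). S100a8 was most like Tet3 (0.965), Nufip2 (0.948) and Sh3bgrl3 (0.923), and S100a9 most like Tet3 (0.974), Hnrnph2 (0.935) and Nufip2 (0.927).

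The annexins and their partners, which S100a10 and S100a11 bind, differed between WT subsets in 8 of 10 genes tested (edgeR), where 46.7% of all genes did. Anxa2, the partner of S100a10, was highest in Esamlo, with 280 ± 57.3 CPM in WT, and exceeded its WT level in C_CD8 of 95.9 ± 46.9 CPM (1.5 ± 0.40 on the log2 scale, adjusted p = 0.0154). Anxa1, the partner of S100a11, averaged 204 ± 27.6 CPM in WT Esamlo and 190 ± 8.72 CPM in WT C_CD8 but 5.17 ± 4.84 CPM in WT PDC. S100a11 was lowest in WT PDC too, whereas S100a10 was highest there, at 111 ± 35.1 CPM, with Anxa2 at 93.5 ± 19.2 CPM. Between ITD and WT, 0 of 10 annexin genes were called in any subset without pairs. With pairs, Anxa2 rose in C_CD8, at 220, 106 and 111 CPM in ITD, against 150, 65.7 and 72.1 CPM in WT (0.63 ± 0.14, adjusted p = 0.0481), in the pairs where the markers of CD11b+ conventional cells were higher in ITD. In NC_CD8 the blocked fit called 3 of 10, against 4.79% of all genes, with Anxa4 higher and Anxa1 and Anxa6 lower. The markers of CD8+ conventional cells were lower in ITD there, as given above, and C_CD8 held 199 ± 16.1 CPM of Anxa1 in ITD and 190 ± 8.72 CPM in WT, and 691 ± 83.3 CPM of Anxa6 in ITD and 738 ± 62.6 CPM in WT. The T cell, red pulp macrophage and erythroid lists also differed between the genotypes of NC_CD8, as given above. The part of these markers in the annexin differences was not tested.

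Of 9 receptors and co-receptors of S100 proteins, 6 differed between WT subsets, against 46.7% of all genes. Emb, embigin, a receptor for S100a8 and S100a9, was lowest in C_CD8 and in the blocked fit rose there, at 20.5, 13.6 and 17.2 CPM in ITD, against 14.8, 8.84 and 9.07 CPM in WT (0.68 ± 0.11, adjusted p = 0.00997 in edgeR). Emb averaged 176 to 223 CPM in the Esamhi and Esamlo groups, and NC_CD8 libraries held 78.1 to 105 CPM. The markers of CD11b+ conventional cells were higher in ITD in the same C_CD8 pairs, and their part in the Emb difference was not tested. Cd36, a scavenger receptor named as a partner of S100a8 and S100a9, fell in NC_CD8 in both fits (without pairs -2.89 ± 0.50, adjusted p = 0.0143), at 6.46 ± 2.02 CPM in ITD, against 52.4 ± 44.7 CPM in WT (SD, n = 3 each). It was the 1 of 9 called without pairs, where 0.31% of all genes were called in NC_CD8. C_CD8 held 550 ± 57.3 CPM of Cd36 in ITD and 559 ± 39.8 CPM in WT. In ITD NC_CD8 the markers of CD8+ conventional cells and of T cells were lower too, as given above. The red pulp macrophage and erythroid markers were lower there in batches C and D. The part of these lists in the Cd36 difference was not tested. Ager, the receptor for advanced glycation end products, averaged at most 1.31 CPM in any group.

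Among 15 targets of S100 proteins inside the cell, 9 differed between WT subsets, against 46.7% of all genes, and 13 with the batch term, against 64.1%. Of these 15, 0 were called between genotypes in any subset without pairs, and 1 with pairs, Cyba in NC_CD8, which fell. In that NC_CD8 fit 4.79% of all genes were called. Of 7 myeloid regulators of S100a8 and S100a9 that passed the filter, 5 differed between WT subsets, against the same 46.7%. Cebpb, 1 of the C/EBP factors, was higher in Esamlo than in C_CD8 (194 ± 7.78 against 16.6 ± 6.34 CPM in WT, 3.52 ± 0.30 on the log2 scale, adjusted p = 3.3e-07 in edgeR), and Spi1, which encodes PU.1, was lower in PDC than in C_CD8 (97.6 ± 10.5 against 493 ± 88.9 CPM in WT, -2.45 ± 0.27, adjusted p = 1.16e-06). Between genotypes, 0 of the 7 were called without pairs and 1 with pairs, Hif1a in NC_CD8, against the same 4.79% of all genes.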

How the data were processed

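Libraries of the 24 sorted samples were made with a low-input SMART-seq v4 kit, per the labels' protocols. Whole-number read counts per gene were deposited by the authors. The submitters' processing notes list bcl2fastq 1.8.4, Bowtie2 (given there as version 0.4), DESeq2 1.8.2 and the mm10 build. For the counting tool, its annotation and its use of strand, no entry was found: not given in the sources used here. A second table deposited by the authors holds normalized signal, which equals the count divided by 1 factor per library (0.634 to 1.3), and was not used.

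Members and gene lists were chosen with earlier results of these data known. The genes named are the 8 members, list genes past the threshold and, for each member, the 3 genes of most similar profile among genes averaging at least 10 CPM. Some genes that this rule names are not reported here. Counts were analysed with R 4.3.3 and edgeR 4.0.16 (limma 3.58.1): TMM scaling, filterByExpr with a minimum count of 10, group means for all 24 libraries, quasi-likelihood tests, and Benjamini-Hochberg adjustment over 18093 genes, called under 0.05. Standard errors are the log2 change divided by the root of F. Pairs of libraries share the subset and the labelled batch, and same-pair libraries deviated together in 12 of 12 pairs. In PDC, Esamhi and Esamlo both pairs of a subset share a single value by construction. Fits with a replicate block, by pair or by batch, are given beside the results they change: with the pair block 1 of 40 genotype tests was called. The scripts were tested on simulated data. DESeq2 1.42.0, other scalings and filters, and leaving out libraries were alternatives; pair-wise omission and summing S100a11 with its copies were added after seeing the data. No 2 replicates were alike within counting noise. The upper limits given for counts of 0 cover counting error only, whereas the standard errors include the spread between libraries. Figures were drawn with Python 3.11.15 and matplotlib 3.10.9.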

Additional observations from a re-analysis of the deposited data

Results flagged for a closer look

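The change of S100a4 between ITD and WT differed among the 5 subsets in the fit with each pair of libraries as a block (edgeR's quasi-likelihood test, adjusted p = 0.0227), C_CD8 having 1.86 ± 0.17 on the log2 scale and the other subsets 0.04 to 0.32. ITD was higher in 3 of 3 C_CD8 pairs. The adjusted p was 0.11, 0.0674 and 0.06 without the C_CD8 pair of batch B, C and D, and 1 without the block.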

How the results depend on the processing

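The replicate block by pair moved the number of members called between genotypes: in each subset from 0 to 1 of 40 tests, in the mean over subsets from 0 to 2 of 8, and in the difference among subsets from 0 to 1 of 8. With the block and S100a11 summed with its copies these were 1, 1 and 1. Leaving out 1 pair at a time with the block gave 1 to 2, 1 to 2 and 0 to 1. Other scalings, filters, DESeq2 and single libraries left out kept all 3 at 0. The 26 calls between WT subsets ranged from 23 to 34 over all alternatives. S100a10 in WT Esamlo against PDC reversed, from -0.34 to 1.04 with the replicate block by batch (1.04 with the copies summed as well); the cause was not tested. S100a8 and S100a9 had 1067 and 1634 reads in all, and their sum ran from 0.0605 to 20.5 CPM within batch D; what limits their tests was not tested.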

Other observations

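The neighbours of S100a4 on chromosome 3, S100a3 and S100a5, were scarce and had their highest WT levels in the subsets where S100a4 was high. S100a3 averaged 1.02 ± 0.304 CPM in Esamhi, 0.9 ± 0.453 CPM in Esamlo and 0.717 ± 0.358 CPM in NC_CD8, against 0.0795 ± 0.112 CPM in PDC and 1 read over the 3 libraries of C_CD8. S100a3 in NC_CD8 and Esamhi exceeded C_CD8 (adjusted p = 0.00477 and 0.00301 in edgeR, exact sizes uncertain at 1 read). S100a5 averaged 1.03 ± 0.554 CPM in WT Esamhi and had 0 reads in WT C_CD8.

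S100pbp, on chromosome 4, encodes a binding protein of the S100 family and had another order: 52 ± 1.91 CPM in WT Esamhi, 31.1 ± 8.76 CPM in NC_CD8, 26.2 ± 9.97 CPM in Esamlo, 14.6 ± 1.66 CPM in C_CD8 and 13.9 ± 0.636 CPM in PDC. S100pbp in Esamhi exceeded C_CD8 by 1.79 ± 0.24 on the log2 scale and PDC by 1.96 ± 0.28 (adjusted p = 3.6e-05 and 2.88e-05 in edgeR). S100a16 had 45 reads in WT PDC, all in batch B. Of the 4 other S100 genes tested, 0 were called between ITD and WT in any subset, without or with the replicate block by pair, under which 1 of 40 tests of the 8 members was called.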
